A study of Homo sapiens with 6 samples.

Results

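Caspases are cysteine proteases that cut target proteins after aspartate residues. The caspase genes described here are 7 of the 8 named for the family (CASP1, CASP2, CASP4, CASP6, CASP8, CASP9 and CASP10), found by symbol among the 17187 rows of the deposited gene table. CASP5 had no row and is not analysed here. RNA was measured in HT-1080, an established human fibrosarcoma cell line labelled wild type, in 3 libraries of cells exposed for 8 h to IFNg (recombinant interferon gamma, 10 ng/ml) and 3 libraries of control cells given PBS. Whether replicates were separate cultures is not stated in the labels, so p-values measure only the spread between these libraries, which may be technical. In bulk RNA, fewer cells of a type and less RNA per cell cannot be told apart.

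Inflammatory caspases (CASP1, CASP4 and CASP5 in human) are activated on inflammasomes or by bacterial lipopolysaccharide, and they cut gasdermin D to open membrane pores, the cell death called pyroptosis. Initiator caspases (CASP8 and CASP10 at death receptors, CASP9 on the apoptosome, CASP2 on the PIDDosome) start apoptosis, and effector caspases, CASP6 among them, carry it out. IFNg acts through JAK kinases and transcription factors that bind promoter elements called GAS, and it induces IRF1, which binds elements called ISRE.

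Values are normalised read counts, that is, whole reads divided by 1 size factor per library. The libraries held 59556948 to 74586440 reads under IFNg and 65639349 to 83501954 reads in control, and 1 read was worth 0.835 to 1.16 units. The labelled cell type was checked with marker genes: 8 of 8 mesenchymal markers were in the table and summed to 768576 to 830596 under IFNg and 837006 to 907348 in control, led by VIM. Among them S100A4 was low, averaging 35.0 under IFNg and 63.6 in control. Epithelial markers summed to at most 78.0 under IFNg and 68.1 in control over the 3 of 5 in the table. Of the 5 of 6 leukocyte markers in the table, the lysosomal gene CD68 held most of the sum (8820 to 14686 under IFNg, 9949 to 15749 in control), while CD3E averaged 11.9 under IFNg and was listed at 0 in every control library. CD14 averaged 9.64 ± 16.7 under IFNg (mean ± SD, n = 3) and was also at 0 in control. LYZ and PTPRC were read in both groups. LYZ averaged 120 ± 27.5 under IFNg and 131 ± 22.7 in control, and PTPRC 15.2 ± 25.5 and 6.43 ± 5.67. The 3 endothelial markers summed to 23.8 to 45.5 under IFNg and 28.4 to 35.4 in control. The part of these low-level genes in the results was not tested.

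After 8 h of IFNg, the inflammatory caspase genes CASP1 and CASP4 and the death receptor caspase genes CASP8 and CASP10 rose, with fold changes of 1.84 (CASP8) to 7.23 (CASP1). CASP2, CASP6 and CASP9 did not pass the test. All 7 genes passed the filter on low values, 4 were called higher by limma (adjusted p under 0.05 over 15546 genes) and 0 lower. Of all genes tested, 3.27% were called higher and 1.05% lower. The median log2 difference was 0.88 over the 7 caspase genes and -0.01 over all genes tested. At an unadjusted p under 0.05 in limma, 5 of the 7 were higher and 0 lower, where 8.81% of all genes tested were higher and 6.46% lower. On recovered reads, edgeR called 4 of the 7 higher and 0 lower, with 3.47% of its genes higher and 1.22% lower. DESeq2 gave the same counts for the 7, with 4.44% of its genes higher and 2.09% lower. In 4 of the 7 every IFNg value lay above every control value, and in 0 every IFNg value lay below. Over all genes tested these shares were 10.7% and 9.28%.

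**Figure D1:**
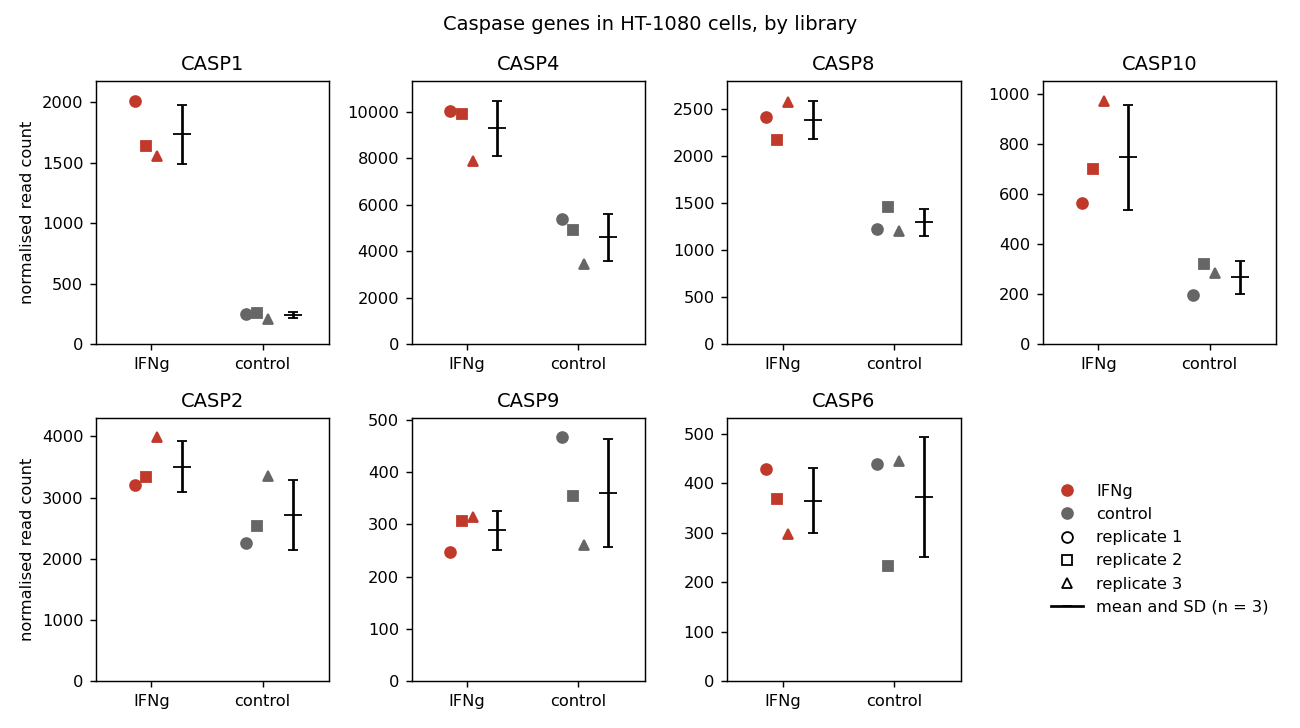
Normalised read count (y axes, linear from 0) of the 7 caspase genes in each IFNg library (red) and control library (grey), with replicate numbers as symbols and the mean and SD of 3 libraries beside the points. CASP1, CASP4, CASP8 and CASP10 do not overlap between groups, while CASP2, CASP9 and CASP6 do.

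CASP1 encodes the protease that matures interleukin 1 beta and interleukin 18. It had 2013, 1640 and 1555 normalised reads in the IFNg libraries 1, 2 and 3, against 247, 260 and 209 in the control libraries. The lowest IFNg library was thus several times the highest control library, and the 5096 raw reads under IFNg and 757 in control leave little counting error. The log2 difference was 2.85 ± 0.19 (SE of the fit; limma adjusted p = 1.25e-06), a 7.23-fold change with a 95% interval of 5.43 to 9.61. This was the largest of the 7 log2 differences.

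CASP4 encodes a protease that binds bacterial lipopolysaccharide in the cytosol. It had 10041, 9927 and 7900 normalised reads under IFNg, against 5399, 4931 and 3473 in control. The libraries numbered 3 were the lowest of both groups, and the groups did not overlap. CASP4 rose by 1.03 ± 0.16 on the log2 scale (limma adjusted p = 0.0018), a 2.04-fold change (95% interval 1.61 to 2.59). The call was lost when limma was run without a variance trend (adjusted p = 0.11).

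On chromosome 11, RefSeq (GRCh38.p14) places CASP4, CASP5, CASP1, CARD16 and CARD18 next to each other as protein-coding genes. CARD16 encodes a CARD-only protein that resembles the CASP1 prodomain and can hold CASP1 back. It had 112, 204 and 152 normalised reads under IFNg, against 86.8, 56.0 and 64.2 in control, and the groups did not overlap. Its log2 difference of 1.15 ± 0.39 did not pass (limma adjusted p = 0.152; edgeR and DESeq2 did not call it either), with a 95% interval of 0.30 to 1.99. CARD18 had 2 reads in all IFNg libraries together and 0 in control.

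Reads of CASP1 and CARD16 could in part be shared. Among all distinct stretches of 50 bases in GENCODE v29 transcripts, 10.6% of those of CARD16 and 4.37% of those of CASP1 were found in the other gene as well. For CASP4 the share found in any other gene was 0.198%, and for the other 5 measured caspase genes it was at most 0.930%, with 0 for CASP9. How multi-mapping reads were counted is not given in the sources used here, so CARD16 values are uncertain. RefSeq also lists genes that overlap CASP1, CASP2, CASP4, CASP6 and CASP10, and CFLAR, which is described below. It lists none that overlap CASP8, CASP9 or CARD16. The strand setting of the counting is not given.

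CASP8 encodes the apical protease of death receptor signalling, which also cuts RIPK1 to hold back necroptosis. It had 2413, 2163 and 2569 normalised reads under IFNg, against 1218, 1453 and 1206 in control. Every IFNg library lay well above every control library. The log2 difference was 0.88 ± 0.13 (limma adjusted p = 0.00177), a 1.84-fold change (95% interval 1.51 to 2.26).

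CASP10 is the closest relative of CASP8 and lies beside it on chromosome 2, and rodents lack it. It had 562, 702 and 973 normalised reads under IFNg, against 195, 322 and 284 in control. The groups did not overlap, and the IFNg libraries spread more widely than the control libraries. CASP10 rose by 1.47 ± 0.27 on the log2 scale (limma adjusted p = 0.00705), a 2.78-fold change (95% interval 1.85 to 4.17). Without a variance trend in limma it missed the threshold (adjusted p = 0.0984).

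The third gene of this cluster, CFLAR, encodes the catalytically inactive regulator c-FLIP that pairs with CASP8. It had 5150, 5222 and 5247 normalised reads under IFNg, against 4575, 4836 and 4055 in control. The groups did not overlap, yet the log2 difference of 0.22 ± 0.10 did not pass (limma adjusted p = 0.326), with a 95% interval of 0.00053 to 0.44. The adaptor gene FADD, which brings CASP8 to death receptors, had 2378, 2467 and 2924 under IFNg, against 1861, 1986 and 2611 in control, with overlapping groups. Its log2 difference was 0.28 ± 0.15 (limma adjusted p = 0.426).

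The promoter sequences of CASP8 and CASP4, both of which rose, are shown for the GAS and ISRE patterns. RefSeq (GRCh38.p14) windows of 300 bases, 250 before and 50 from the annotated start onward, matched 5 of the 7 caspase genes by symbol, as 9 windows. CASP1 and CASP10, which also rose, had no window and were not searched. The 9 windows were searched on both strands for TTCNNNGAA (GAS) and GAAANNGAAA (ISRE), patterns that may overlap but did not here. Both occurred in 1 of the 9 windows, the first of 3 for CASP8 (chr2:201233213-201233512, plus strand). The GAS match, TTCCAAGAA, began at -200 from the start, and the ISRE match, TTTCTGTTTC on the printed strand, began at -3. Of all 35116 windows in the table, 7.66% held the GAS pattern and 3.57% the ISRE pattern. The CASP4 window (chr11:104968525-104968824, minus strand) held neither, which says only that these letters are not in this window. The sequences are printed 5′ to 3′ along the gene, with the matches in capitals; a match is a description of letters and not of binding.
CASP8: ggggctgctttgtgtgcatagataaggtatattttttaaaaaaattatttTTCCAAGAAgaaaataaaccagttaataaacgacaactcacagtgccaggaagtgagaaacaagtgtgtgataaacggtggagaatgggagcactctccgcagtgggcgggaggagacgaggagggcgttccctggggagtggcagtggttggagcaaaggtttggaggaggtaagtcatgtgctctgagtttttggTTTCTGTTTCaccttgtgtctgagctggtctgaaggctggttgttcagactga
CASP4: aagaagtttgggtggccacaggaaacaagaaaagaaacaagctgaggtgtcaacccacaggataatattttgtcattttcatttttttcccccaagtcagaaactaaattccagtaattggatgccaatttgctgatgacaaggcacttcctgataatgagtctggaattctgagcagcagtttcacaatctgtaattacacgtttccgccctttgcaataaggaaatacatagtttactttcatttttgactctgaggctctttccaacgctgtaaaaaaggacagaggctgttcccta

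CASP2, which takes part in the response to DNA damage and extra centrosomes, had 3203, 3332 and 3986 normalised reads under IFNg, against 2255, 2529 and 3350 in control. The libraries numbered 3 were the highest of both groups, and control 3 reached into the IFNg range. The log2 difference was 0.38 ± 0.15 (limma adjusted p = 0.233; 95% interval 0.06 to 0.71). Without control 3 it was 0.55 and passed (limma adjusted p = 0.0184), and without both libraries numbered 3 it was 0.45 (limma adjusted p = 0.0234).

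CASP9, the protease of the apoptosome, had 246, 306 and 314 normalised reads under IFNg, against 467, 355 and 260 in control. The groups overlapped, and the control libraries differed more among themselves than the IFNg libraries did. The log2 difference of -0.29 ± 0.27 did not pass (limma adjusted p = 0.695), and its 95% interval of -0.88 to 0.31 leaves room for a change in either direction. Without control 3 the difference was -0.50 and without control 1 it was -0.08, neither past the threshold. Its partner gene APAF1, which builds the apoptosome, had 2906, 2800 and 3263 under IFNg, against 1847, 1852 and 2523 in control, with no overlap. The APAF1 log2 difference of 0.54 ± 0.14 missed the threshold in limma (adjusted p = 0.0556). It passed in DESeq2 (adjusted p = 0.0125) and without control 3 in limma (adjusted p = 0.00311).

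CASP6, an effector caspase that cuts lamin A, had 428, 368 and 298 normalised reads under IFNg, against 439, 232 and 445 in control. The groups overlapped throughout. The log2 difference was 0.02 ± 0.29 (limma adjusted p = 0.988; 95% interval -0.62 to 0.65), and it turned to -0.29 without control 2.

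**Figure D2:**
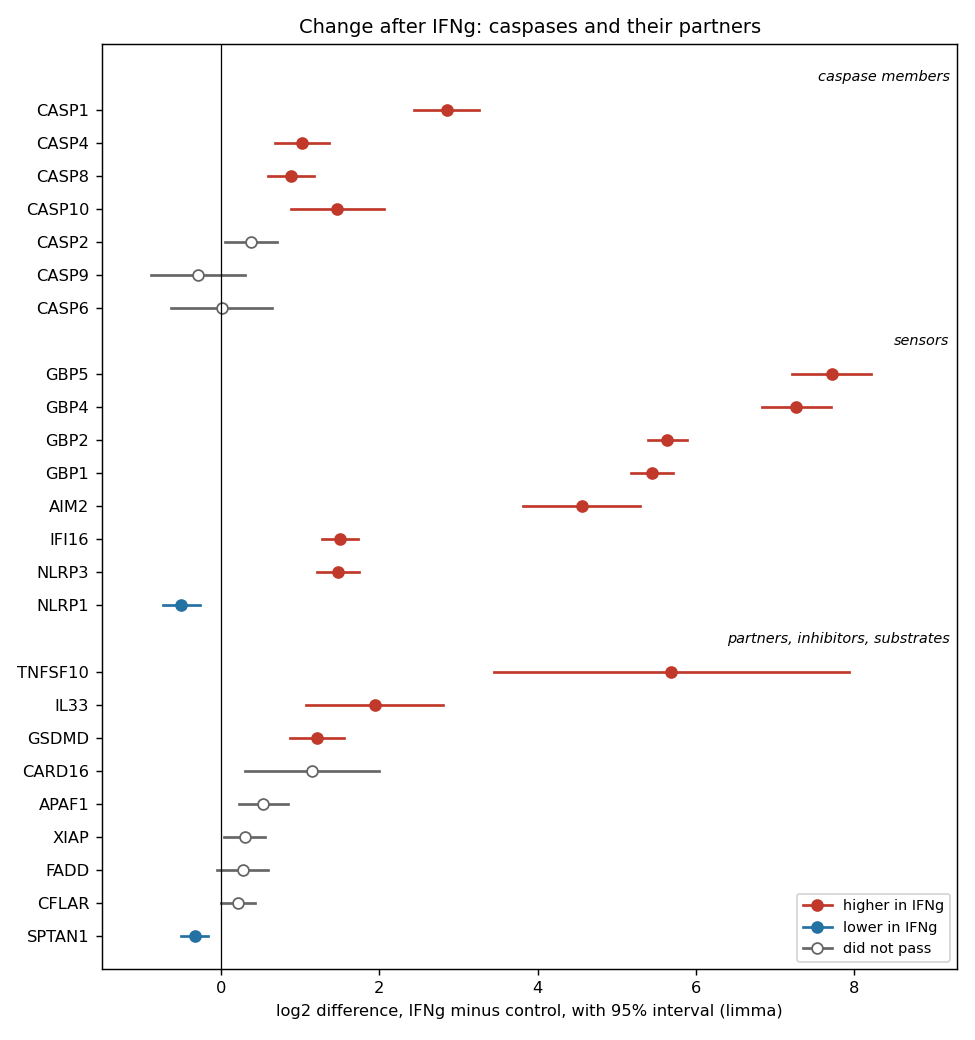
Log2 difference between IFNg and control (x axis) with its 95% interval from limma for caspase genes and their partners (rows). Filled red points passed as higher and filled blue points as lower in IFNg, and open grey points did not pass; the interval of CASP1 lies from 2.44 to 3.27 and that of CASP6 from -0.62 to 0.65.

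Levels can be set side by side only per length, here as the normalised read count per kb of merged exons (GENCODE v29). On that scale CASP4 was the highest of the 7 caspase genes in both groups, at 4110 ± 533 per kb under IFNg and 2036 ± 444 per kb in control (mean ± SD, n = 3 each). Under IFNg the order of levels per kb went on with CASP2 (815 ± 97.5), CASP1 (651 ± 91.5) and CASP8 (605 ± 52.1), of which CASP2 and CASP1 overlapped in range and CASP1 and CASP8 did too. Below them came CASP6 (205 ± 36.8), CASP10 (111 ± 31.2) and CASP9 (62.7 ± 8.03), each apart from its neighbour. In control the order of levels per kb after CASP4 was CASP2 (630 ± 132), CASP8 (328 ± 35.4), CASP6 (209 ± 68.2), CASP1 (89.5 ± 9.86), CASP9 (78.3 ± 22.5) and CASP10 (39.9 ± 9.72). CASP1 and CASP9 overlapped in control, and the other neighbours in that order did not. CASP1 thus held place 3 of 7 under IFNg and place 5 in control. The exon lengths come from a later annotation than the one the reads were counted on, and total RNA also holds unspliced transcripts, so these levels are approximate.

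**Figure D3:**
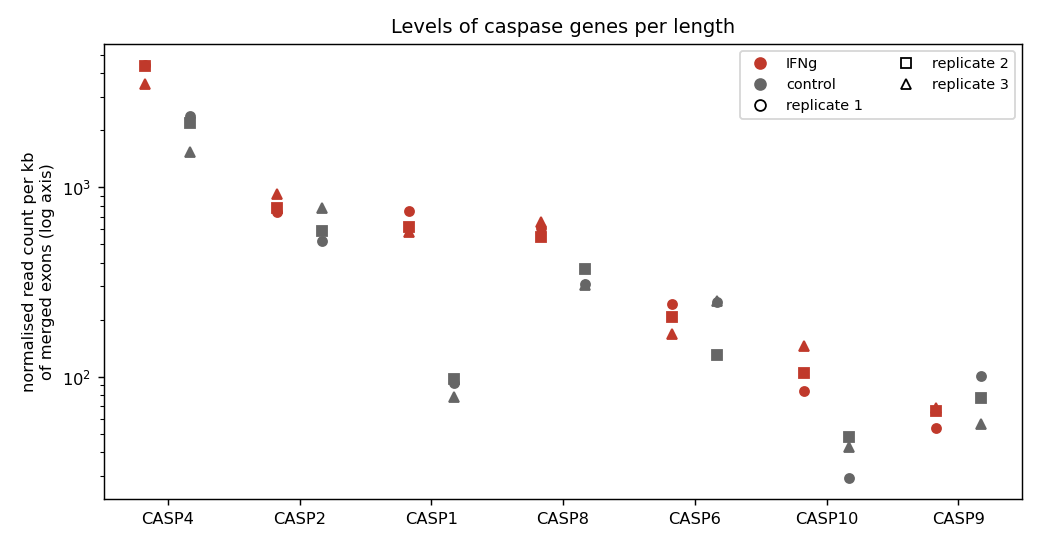
Normalised read count per kb of merged exons (y axis, log scale) for the 7 caspase genes (x axis) in each IFNg library (red, left) and control library (grey, right). CASP4 is highest at 4110 per kb under IFNg and 2036 per kb in control, and CASP1 stands at 651 per kb under IFNg and 89.5 per kb in control.

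The partners of the caspases were described with gene lists that share some members. Over all genes tested by limma, 3.27% were called higher and 1.05% lower. At an unadjusted p under 0.05 these shares were 8.81% and 6.46%. Of the 15546 genes, 847 were called higher and 455 lower without control 3. Without both libraries numbered 3 the counts were 882 and 599. Among 12 tested inflammasome sensors and adaptors, 7 were called higher and 1 lower, with a median log2 difference of 1.49. The guanylate-binding protein genes GBP1, GBP2, GBP4 and GBP5, some of which coat bacteria and bring CASP4 to lipopolysaccharide, rose by 5.45 ± 0.12, 5.64 ± 0.11, 7.27 ± 0.20 and 7.71 ± 0.23 on the log2 scale (limma adjusted p up to 8.43e-10). AIM2, a DNA sensor that activates CASP1, rose by 4.56 ± 0.34 (limma adjusted p = 3.75e-06). NLRP3, the sensor of the best-studied CASP1 inflammasome, had 6260, 6293 and 5401 normalised reads under IFNg, against 1981, 2481 and 2001 in control. NLRP3 rose by 1.48 ± 0.12 on the log2 scale (limma adjusted p = 8.27e-06), and the DNA sensor gene IFI16 by 1.51 ± 0.10 (limma adjusted p = 1.91e-06). NLRP1, another sensor that recruits CASP1, fell by 0.50 ± 0.11 on the log2 scale (limma adjusted p = 0.0238), a call lost without any single library except control 3 (limma adjusted p 0.0558 to 0.147) and without a variance trend (0.173).

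PYCARD, the adaptor ASC that links NLRP3 and AIM2 to CASP1, was close to absent (it is mentioned after its values were seen). It had 1 read over the 3 IFNg libraries and 11 over the 3 control libraries, all of them in control 3. It missed the filter on low values and was not tested. NLRC4, of the same list, likewise missed the filter, with 0 reads under IFNg and 16 in control, all in control 1.

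Among 6 tested substrates of the inflammatory caspases, 2 were called higher and 0 lower, where limma called 3.27% and 1.05% of all genes tested. Their median log2 difference of 0.17 is the middle of IL1B (-0.67) and the barely read IL18 (1.02), so it describes the list poorly. GSDMD, the gasdermin that CASP1 and CASP4 cut, had 3700, 3921 and 3462 normalised reads under IFNg, against 1243, 1685 and 1915 in control. The groups did not overlap and GSDMD rose by 1.22 ± 0.15 on the log2 scale (limma adjusted p = 0.000412). IL33, an alarmin of the interleukin 1 family, rose by 1.94 ± 0.40 (limma adjusted p = 0.0147). It was listed here by family, and the caspases known to inactivate it are effector caspases, so that the 2 higher genes hold 1 substrate of the inflammatory caspases proper. The IL33 call was lost without any single IFNg library, without control 1 and without a variance trend (limma adjusted p 0.0512 to 0.0916). At an unadjusted p under 0.05, 1 substrate (IL1A) was lower, and edgeR and DESeq2 called 0 lower. Without control 3, and without both libraries numbered 3, 2 were called lower (IL1A and IL1B). The IL1A log2 difference was -1.31 ± 0.43 (limma adjusted p = 0.139), against -1.88 without control 3 (limma adjusted p = 0.00129). IL1B and IL18, the cytokine genes whose products CASP1 matures, are given here after their values were seen. IL1B had 26772, 27953 and 9764 normalised reads under IFNg, against 44483, 45264 and 14665 in control. The libraries numbered 3 were far below the others in both groups, the groups overlapped, and the log2 difference of -0.67 ± 0.43 did not pass (limma adjusted p = 0.526). IL1B passed as lower without control 3 (-1.21, limma adjusted p = 0.0383) and without both libraries numbered 3 (-0.71, limma adjusted p = 8.6e-06). IL18 was read 14 times over the IFNg libraries and 4 times over the control libraries, too few to compare.

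Among 10 tested genes of the death receptor complex, 1 was called higher and 0 lower (0 lower also at an unadjusted p under 0.05, in edgeR and in DESeq2). At an unadjusted p under 0.05, 4 were higher (TNFSF10, CFLAR, TNFRSF1A and CASP8AP2), where 8.81% of all genes tested were higher. Of all genes tested, limma called 3.27% higher and 1.05% lower. The count of higher genes was 3 without control 3 and 2 without both libraries numbered 3, where the receptor gene TNFRSF1A passed too, and 0 without a variance trend. The list had a median log2 difference of 0.22. The gene that rose was TNFSF10, which encodes the death receptor ligand TRAIL, with 128, 136 and 139 normalised reads under IFNg, against 17.1, 0 and 0 in control. The ratio of the group means was 23.5. The log2 difference of 5.69 ± 1.03 (limma adjusted p = 0.00651) depends on the pseudocount, since 2 control values are 0: it was 3.37 with a pseudocount of 10 and 6.36 with 0.5. It was 4.60 in edgeR, 7.08 without control 1 and 4.99 without control 2 or control 3. DESeq2 did not call TNFSF10 (adjusted p = 0.207), nor did limma without a variance trend (adjusted p = 0.124). The pooled control count was 16 reads, all in control 1. The 1 gene of this list that DESeq2 called higher was CASP8AP2 (0.41, DESeq2 adjusted p = 0.0232). CASP8AP2 did not pass in limma (adjusted p = 0.0714) but did without control 3 (limma adjusted p = 0.0427).

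Of the genes each tool tested, limma called 3.27% higher, edgeR 3.47% and DESeq2 4.44%, with 1.05%, 1.22% and 2.09% lower. At an unadjusted p under 0.05 in limma, 8.81% were higher and 6.46% lower. Among 7 tested apoptosome and PIDDosome genes, 0 were called in either direction by limma. At an unadjusted p under 0.05, 1 of them was higher and 0 lower, and 0 were called in edgeR and 1 (APAF1) in DESeq2. APAF1 was also called higher without control 3, and APAF1 and BID without both libraries numbered 3. Their median log2 difference was -0.08. Among 9 tested caspase inhibitors, 0 were called in either direction by limma, edgeR or DESeq2, although 4 (BIRC2, CARD16, CFLAR and XIAP) were higher at an unadjusted p under 0.05 and the median log2 difference was 0.22. XIAP, which binds and blocks CASP9, had 4646, 4765 and 4661 normalised reads under IFNg, against 4403, 3848 and 3241 in control. Its groups did not overlap, with a log2 difference of 0.30 ± 0.12 (limma adjusted p = 0.23). Among 13 tested substrates of apoptotic caspases, 0 were called higher by limma, edgeR and DESeq2 (2 at an unadjusted p under 0.05, LMNB1 and PARP1) and 1 lower, with a median log2 difference of -0.0024. Without control 3, 2 were called higher (LMNB1 and PARP1), and without both libraries numbered 3, 3 were (LMNB1, PARP1 and BID). The lower gene was SPTAN1, the spectrin chain that caspases and calpains cut, which fell by 0.33 ± 0.08 on the log2 scale (limma adjusted p = 0.0387). The SPTAN1 call was lost without any single library except control 3 (limma adjusted p 0.0543 to 0.208) and without a variance trend (0.178).

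Over the 54 tested partner genes of these lists that are not among the 7, 10 were called higher and 2 lower, with a median log2 difference of 0.18. Over all genes tested, 3.27% were called higher and 1.05% lower, with a median of -0.01. The called partner genes were AIM2, GBP1, GBP2, GBP4, GBP5, GSDMD, IFI16, IL33, NLRP3 and TNFSF10 on the higher side and NLRP1 and SPTAN1 on the lower side.

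Ratios within a library show whether neighbouring or partner genes changed by unequal amounts; a level ratio between genes depends on their lengths, so only its change is read. In 7 pairs compared, the exact 2-sided permutation test over 3 against 3 libraries could not go below p = 0.1, and adjusted values were 0.14 or 0.2. The log2 ratio of CASP1 to CASP4 was -2.32, -2.60 and -2.34 under IFNg, against -4.44, -4.24 and -4.05 in control, with no overlap and a difference of 1.82 (exact p = 0.1). The log2 ratio of CASP1 to CARD16 averaged 3.50 ± 0.59 under IFNg and 1.79 ± 0.36 in control, and that of CASP1 to GSDMD averaged -1.10 ± 0.20 under IFNg and -2.73 ± 0.43 in control, neither with overlap. CASP8 to CFLAR was -1.09, -1.27 and -1.03 under IFNg, against -1.91, -1.73 and -1.75 in control. That is a difference of 0.67 with no overlap (exact p = 0.1). CASP10 to CFLAR differed by 1.25 in the same way (exact p = 0.1). CASP8 to CASP10 overlapped between groups, at 1.71 ± 0.36 under IFNg and 2.30 ± 0.30 in control (exact p = 0.2), as did CASP9 to APAF1, at -3.37 ± 0.18 under IFNg and -2.55 ± 0.66 in control (exact p = 0.2).

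**Figure D4:**
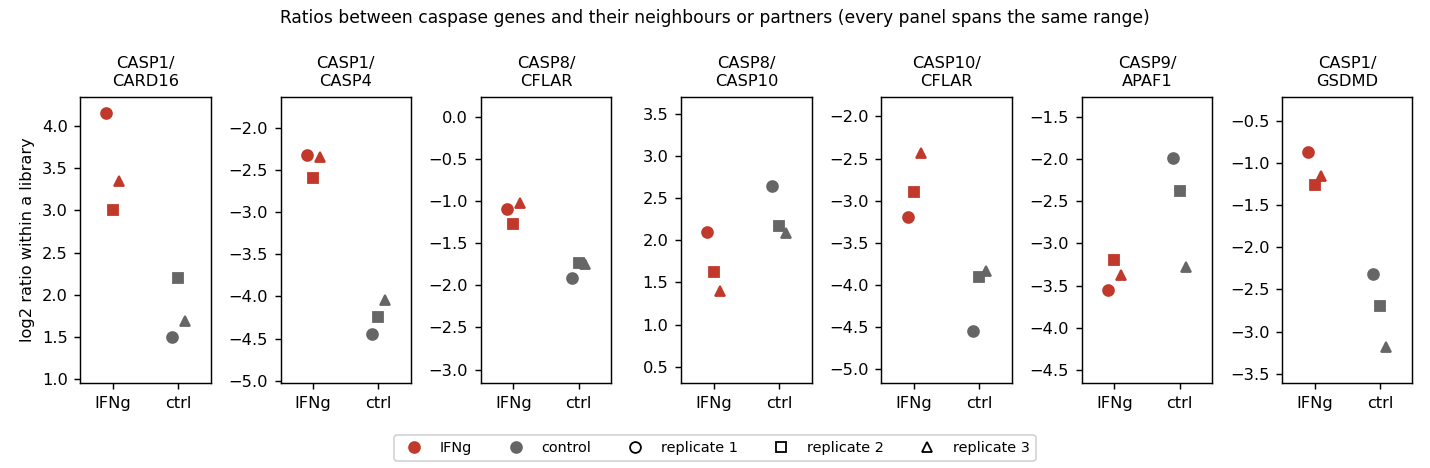
Log2 ratio of normalised read counts within each library (y axes, each spanning the same range) for 7 pairs of genes, with IFNg (red) left of control (grey). The ratios of CASP1 to CARD16, CASP4 and GSDMD and of CASP8 and CASP10 to CFLAR do not overlap between groups, with differences of 0.67 to 1.82.

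The genes whose profile over the 6 libraries lay nearest to each caspase gene that rose were found by the root mean square distance between log2 values set against the gene's own control mean. Among the nearest to CASP1 were the antiviral gene IFIT2 (distance 0.128) and the apolipoprotein gene APOL1 (0.147), with log2 differences of 2.87 and 2.94. Nearest to CASP8 were TRIM38 (0.0812), HDAC4 (0.0846) and MCTP2 (0.0891), with log2 differences of 0.93, 0.86 and 0.96. Nearest to CASP4 were DGKG (0.0743), RDH14 (0.0991) and BTN3A2 (0.104), of which RDH14 did not pass the test itself (limma adjusted p = 0.214). Nearest to CASP10 were PCDH20 (0.163), TDRD7 (0.205) and CCDC81 (0.227), and of these only TDRD7 passed (limma adjusted p = 0.000127).

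The 4 caspase genes that rose kept their call without each of the 6 libraries in turn. Over those fits the highest limma adjusted p was 6.04e-05 for CASP1, 0.0187 for CASP4, 0.0181 for CASP8 and 0.0413 for CASP10. Their log2 differences stayed within 2.74 to 2.93 for CASP1, 0.84 to 1.16 for CASP4, 0.83 to 0.97 for CASP8 and 1.26 to 1.66 for CASP10.

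**Figure D5:**
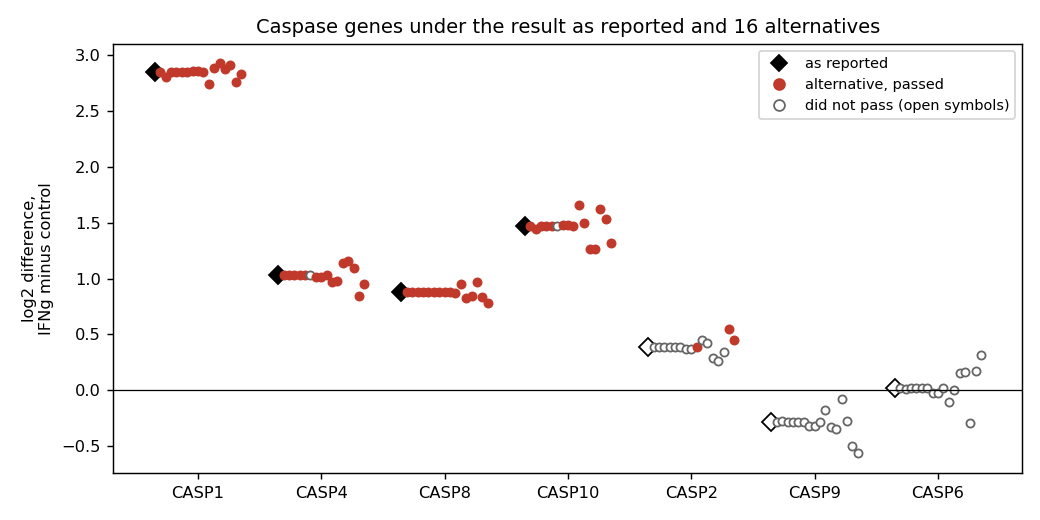
Log2 difference between IFNg and control (y axis) of the 7 caspase genes (x axis) as reported (diamond) and under 16 alternatives (circles), filled where the adjusted p was under 0.05. CASP1 stays between 2.74 and 2.93 throughout, CASP4 and CASP10 each have 1 open circle, and CASP6 lies on both sides of 0.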

How the data were processed

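Per the labels' protocols, ribosomal RNA was removed from total RNA of HT-1080 cells (3 IFNg and 3 control libraries) before stranded, paired-end sequencing. Per the submitters' processing notes, TopHat2 2.0.13, Cuffdiff 2.2.1, Cufflinks and FastQC 0.11.3 were used, with hg19 and GRCh37 as builds. Which program counted reads, with which strand setting, and how multi-mapping reads were treated is not given in the sources used here. Although called RPKM, each deposited signal value is whole reads over a library's size factor: 100% of positive values were whole multiples of 1 step (tolerance 0.001 reads). The factors equalled recomputed median-of-ratios factors (0.863 to 1.20).

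limma 3.58.1 in R 4.3.3 was run on log2(value + 1) with a variance trend and no covariate besides group, 2-sided. Benjamini-Hochberg adjustment ran over the 15546 genes that reached 0.5 in 3 or more libraries. Log2 differences of genes with values near 0 depend on the pseudocount. edgeR 4.0.16 (quasi-likelihood) and DESeq2 1.42.0 were run on recovered reads as alternatives, beside other pseudocounts, filters and scaling and fits that left out libraries. The tests were tested on simulated data. The members and lists were chosen with earlier results of these data known. Some genes of the lists and of the profile search are not reported here. Named partner genes are those reported from the lists that passed, plus CFLAR, CARD16, APAF1, GSDMD, XIAP and FADD whatever their result. Other partner genes (PYCARD, NLRC4, CARD18, IL1A, IL1B, IL18, BIRC2, BID, LMNB1, PARP1, TNFRSF1A and CASP8AP2) were named after their values were seen. The pair of CASP4 with CASP5 could not be computed.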

Additional observations from a re-analysis of the deposited data

How the results depend on the processing

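Of the 7 caspase genes, CASP1, CASP8 and CASP9 kept their direction and their side of the threshold under all 16 alternatives. Without a variance trend, CASP4 (1.03, limma adjusted p = 0.11) and CASP10 (1.47, limma adjusted p = 0.0984) missed the threshold, so that 2 caspase genes were called higher, and the cause was not tested; over the other alternatives their limma, edgeR or DESeq2 adjusted p was at most 0.0187 and 0.0413. CASP2 passed without both libraries numbered 3 (0.45, limma adjusted p = 0.0234), and without single libraries it lay between 0.26 and 0.55. CASP6 turned to -0.026 in edgeR and -0.027 in DESeq2 and to -0.11 without IFNg 1 and -0.29 without control 2 (range without single libraries -0.29 to 0.17).

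Correlated over all genes tested, low ones included, the libraries were paired weakly at most by the numbers the groups share. Deviations from the group means correlated by 0.0437, 0.0209 and 0.111 for numbers 1, 2 and 3 over genes. IFNg 2 correlated best with control 1. The value of 0.111 for number 3 was the highest of all pairs of an IFNg and a control library. Libraries numbered 3 correlated negatively with the other numbers of the other group (-0.0678 to -0.0395). With the replicate number as a block, CASP2 passed (0.38, limma adjusted p = 0.0214) and the other 6 caspase genes kept their side of the threshold. The block raised the calls over all genes from 509 to 915 higher and from 163 to 549 lower. Among the 54 partner genes it gave 15 higher and 4 lower (NLRP1, SPTAN1, IL1A and IL1B). The limma adjusted p with the block was 1.4e-09 for CASP4 and 1.08e-07 for IL1B, against 0.0018 and 0.526 without it. In both genes the libraries numbered 3 were the lowest of both groups. Whether libraries numbered 3 shared an effect was not tested.

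Over all genes, 279 were called higher and 41 lower without a variance trend, 882 and 599 without both libraries numbered 3, and 332 lower in DESeq2, where 509 and 163 were reported. Leaving out single libraries gave 330 to 847 higher and 37 to 455 lower. Among the 54 partner genes the count of lower calls was 2 as reported and 0 without a variance trend. It was 4 without both libraries numbered 3 and 0 to 4 without single libraries. Higher calls among them numbered 10 as reported and 8 without a variance trend. They numbered 15 without both libraries numbered 3 and 9 to 15 without single libraries. The 7 log2 ratios kept their sign under every alternative run on them. The single partner genes compared were those called as reported plus CFLAR, CARD16, APAF1, GSDMD, XIAP and FADD. For these and the lists, results stayed as reported in 536 comparisons with an alternative and lost the threshold in 19. They gained it in 4, all of them for APAF1, and moved as counts by over 1.5 times in 33. Partner genes outside this set were not part of these comparisons. Some of them also gained the threshold under alternatives: IL1A, IL1B, TNFRSF1A, CASP8AP2, LMNB1, PARP1 and BID. The 95% intervals come from limma, whose variances combine each gene's own spread between libraries with that of genes at similar levels. They can be narrower or wider than the gene's own spread alone. CARD18, PYCARD and NLRC4 were too low to test.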
